A study of Saccharomyces cerevisiae with 6 samples.

Results

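The methyl cycle and transsulfuration were followed through 9 named genes of *Saccharomyces cerevisiae*: MET6, SAM1, SAM2, SAH1, ADO1, CYS3, CYS4, STR2 and STR3. They were taken by gene name from a table of RNA-seq read counts for 6400 genes, and all 9 had a row and passed the filter on low counts. The series compares CX01F, an evolved strain (3 libraries), with its parent CX01 (3 libraries), to ask how metabolism was rearranged during adaptation to growth on methanol. Cultures of both strains spent a night in rich YPD medium and 16 h in minimal Delft medium. They were then moved to Delft medium in which 1% methanol was given and glucose was left out, grown in shake flasks at 30 °C and 200 rpm and collected at an OD600 near 1.0.

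Both strains carry 1 genotype label, so by that label the parent shares every listed change. The label lists Paox1-SKL, Pdas1-skl, pDAK, pPYC, sXR, sXDH and sXK with the prefix P., mMDH3-skl and mACT1-skl with the prefix B., and MDH2, cMDH3 and Cnde1 with the prefix S. It also lists PEX5 and the deletions ∆PEX31 and ∆PEX32. None of the 9 genes is in it. PEX31 had 0 or 1 count in each library, while PEX32, also labelled as deleted, had 167 to 279. The evolved strain is a single named strain, and its 3 libraries are replicates of that strain, not of the evolution. The labels give no batch, so handling and strain cannot be told apart, and the p-values measure only the spread between the cultures as handled.

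The methyl cycle makes S-adenosylmethionine (SAM), the methyl donor of most methyltransferases, and recovers what is left after the methyl group has been passed on. Met6, the cobalamin-independent methionine synthase, methylates homocysteine to methionine with a methyl group from folate. The synthetases Sam1 and Sam2 join methionine to the adenosyl group of ATP. Methyl transfer leaves S-adenosylhomocysteine, which Sah1 splits into homocysteine and adenosine, and the adenosine kinase Ado1 phosphorylates the adenosine. Transsulfuration moves sulfur between homocysteine and cysteine through cystathionine: Cys4 and Cys3 run from homocysteine to cysteine, and Str2 and Str3 run back. In yeast the genes of sulfur amino acid synthesis are known targets of the activator Met4, which is brought to DNA by Cbf1 and by Met31 and Met32.

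Upstream matches to the motifs of Met31, Met32 and Cbf1 are shown first. SAM1 and SAM2, which encode the same enzyme activity, share a Met31/Met32 match, and SAM2 also has a Cbf1 match. SAM1 had the highest and SAM2 the lowest log2 change of the 9 genes. Whether the motifs bear on these changes was not tested. The sequences are RefSeq's R64 reference, not the strains' own, and the build behind the counts is not given in the sources used here. The 500 bases before each start codon were searched on both strands for AAACTGTGG, the motif of Met31 and Met32, which 0.85% of 6000 such windows of protein-coding genes held. SAM1, SAM2, MET6 and CYS4 each had 1. These lie at chrXII:514975-515003 (plus strand), chrIV:1454746-1454774 (minus strand), chrV:342456-342484 (minus strand) and chrVII:798326-798354 (plus strand). Each is printed 5′ to 3′ on the gene's strand with 10 bases on either side, and capitals mark the motif, which in CYS4 is on the opposite strand and so reads as its reverse complement.
SAM1: tttcacaggaAAACTGTGGtggcgccctt
SAM2: ttgagcttgaAAACTGTGGcgtttttcca
MET6: cccggtcgcaAAACTGTGGtagtcatagc
CYS4: ccatcttcctCCACAGTTTtgcaccgaaa

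The Cbf1 motif CACGTG, which reads the same on both strands and does not overlap the motif above in any of these windows, was in 6.23% of the 6000 windows. SAM2, SAH1, CYS3, CYS4 and MET6 each had 1, and SAM1, ADO1, STR2 and STR3 had none in this window. The sites lie at chrIV:1454772-1454797 (minus strand), chrV:237345-237370 (minus strand), chrI:130573-130598 (plus strand), chrVII:798128-798153 (plus strand) and chrV:342647-342667 (minus strand). Capitals mark CACGTG, and the MET6 stretch is shorter at its 5′ side because the window ends there.
SAM2: tatttctaccCACGTGactataattg
SAH1: tatttctgtgCACGTGatctcgttgg
CYS3: attagccattCACGTGatctcagcca
CYS4: atggtaatggCACGTGatagtagtgg
MET6: tatttCACGTGacttacaaac

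In SAM2 the motifs start 323 (Cbf1) and 300 (Met31/Met32) bases before the start codon, and in SAM1 the Met31/Met32 motif starts 277 bases before it. TGACTCA, the motif of the amino acid regulator Gcn4, searched on both strands, was found only upstream of STR3 among the 9 genes and in 4% of all windows. ADO1 and STR2 had none of the 3 motifs. A match says only that these letters are there, and binding was not measured.

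Library totals ranged from 51537969 to 63183824 counts over named genes. The lowest count of any of the 9 genes in a library was 982, for SAM1 in CX01 replicate 1. Levels are given as CPM, a gene's counts relative to the total of the library, on library sizes scaled by TMM, a method that takes most genes as unmoved. Changes are log2 fold changes of CX01F against CX01 with their standard error (SE), from edgeR's quasi-likelihood test on all 6129 tested genes with Benjamini-Hochberg adjustment, and a gene was called at an adjusted p under 0.05.

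Of the 9 genes 8 were called higher in CX01F and 1, SAM2, was called lower. Over all tested genes 91.4% were called, 45.5% higher and 45.9% lower, so a call alone sets these genes little apart. The libraries of the strains did not overlap for any of the 9, against 91.9% of all tested genes. All 8 rises were at least 2-fold, a size reached by 16.1% of tested genes. The median log2 change of the 9 was 1.38, beside 0.00 over all tested genes. That 0.00 follows largely from TMM scaling, and library size only shifted all tested genes by a median log2 of -0.207. With library size in place of TMM the rise of STR3 was below 2-fold (log2 0.86), as it was without the genes of chromosomes XI and XV (log2 0.95), and all 9 kept their direction in both fits. The summed level of the 9 genes was 922 ± 23.8 CPM in CX01 and 2826 ± 15.4 CPM in CX01F (SD, n = 3 each), or 0.0958% to 0.101% of a library's counts against 0.262% to 0.265%.

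**Figure D1:**
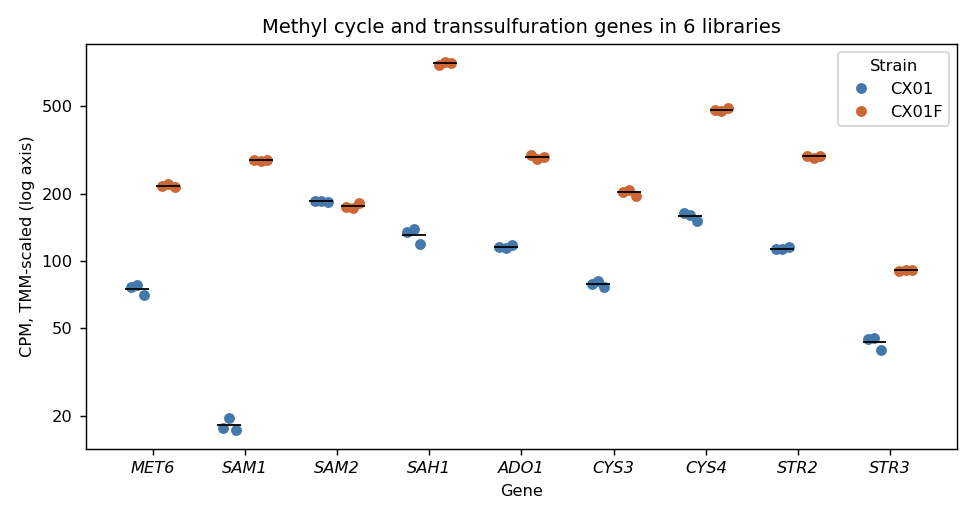
CPM on TMM-scaled library sizes (log axis) of the 9 genes in the 3 CX01 and 3 CX01F libraries, with each point 1 library and each line the mean of 3. The CX01F points lie above the CX01 points for every gene but SAM2, and SAM1 shows the widest gap, from 18.2 to 285 CPM on average.

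The transcript of methionine synthase rose 2.91-fold. MET6 was at 76.4, 78.4 and 70.8 CPM in CX01 replicates 1 to 3 and at 218, 223 and 216 CPM in those of CX01F. Each strain's libraries lay close together, with the lowest CX01 value in replicate 3. The log2 change was 1.54 (SE 0.0349, edgeR adjusted p = 7.53e-15).

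Of the genes of the SAM synthetases, SAM1 rose more than any other of the 9 genes, and SAM2 fell slightly. SAM1 was the lowest of the 9 in CX01, at 17.7, 19.7 and 17.3 CPM, and stood at 286, 283 and 287 CPM in CX01F. That is 15.6-fold higher (log2 3.97, SE 0.0398, edgeR adjusted p = 2.66e-18), and 26 of the tested genes had a larger rise. SAM2 was at 186, 186 and 185 CPM in CX01 and at 176, 174 and 183 CPM in CX01F, so the highest CX01F library lay just under the lowest CX01 library. Its log2 change was -0.07 (SE 0.0266, edgeR adjusted p = 0.0279), 1.05-fold lower. This call turned on single libraries: the adjusted p was 0.0645 without CX01 replicate 1, 0.106 without CX01F replicate 1 and 0.121 without CX01F replicate 2. Its size turned on the scaling, with a log2 change of -0.27 by library size only and -0.18 without the genes of chromosomes XI and XV.

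SAM1 held 8.65%, 9.57% and 8.56% of the summed counts of both genes in CX01 replicates 1 to 3 and 62.0%, 62.0% and 61.1% in CX01F. The mean shares of 8.93% ± 0.559 and 61.7% ± 0.481 (SD, n = 3 each) differed by 52.8 percentage points, which no library scaling can change (exact permutation test, two-sided, p = 0.1, the smallest that 3 against 3 libraries allow). Summed, both genes stood at 204 ± 1.42 CPM in CX01 and 463 ± 6.92 CPM in CX01F. Fitted as 1 row they rose by a log2 of 1.18 (edgeR adjusted p = 3.85e-15), which lies between the changes of STR3 (1.07) and CYS4 (1.60).

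**Figure D2:**
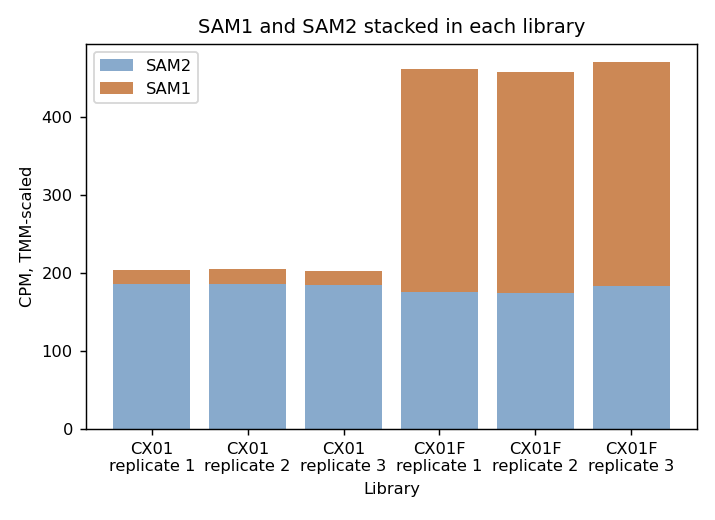
CPM on TMM-scaled library sizes of SAM2 (lower part of each bar) and SAM1 (upper part), stacked, in each of the 6 libraries. The SAM2 part has nearly the same height in all 6 (174 to 186 CPM), and the SAM1 part grows from at most 19.7 CPM in CX01 to at least 283 CPM in CX01F.

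The coding sequences of SAM1 and SAM2 are alike, and how the authors treated reads that map to several places is not given in the sources used here. In R64 they are identical at 83.5% of 1148 aligned positions. Of the 50-base windows of SAM1, 1.82% occur elsewhere in the genome, and 1.81% of those of SAM2 do. For the other 7 genes no such window does. The longest identical run has 59 bases and lies at chrXII:515961-516019 (plus strand) in SAM1 and at chrIV:1453701-1453759 (minus strand) in SAM2. It is shown because a short read from it could not be told apart between these genes.
SAM1 and SAM2: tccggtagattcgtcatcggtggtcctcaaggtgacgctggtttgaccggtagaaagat

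The next largest rise was in a gene for the recycling of S-adenosylhomocysteine. SAH1 was at 135, 139 and 120 CPM in CX01, where replicate 3 was lowest, and at 762, 786 and 785 CPM in CX01F. It rose 5.92-fold (log2 2.57, SE 0.0452, edgeR adjusted p = 5.13e-16), and 2.15% of tested genes had a larger rise. ADO1, whose product removes the adenosine that Sah1 releases, was at 116, 115 and 118 CPM in CX01 and at 300, 288 and 294 CPM in CX01F. Its rise was 2.53-fold (log2 1.34, SE 0.0269, edgeR adjusted p = 2.03e-15). Within a library, SAH1 stood above MET6 per kb of coding length by a log2 of 1.60, 1.60 and 1.53 in CX01 and by 2.58, 2.59 and 2.63 in CX01F. The ratio was thus 2.98 in CX01 and 6.06 in CX01F, 2.04 times as large, with no overlap between the strains (exact permutation test, two-sided, p = 0.1, again the smallest possible).

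All 4 transsulfuration genes rose, in a narrower range than the methyl cycle genes. On the way from homocysteine to cysteine, CYS4, the cystathionine beta-synthase, was at 164, 161 and 151 CPM in CX01 and at 478, 474 and 491 CPM in CX01F (3.03-fold, log2 1.60, SE 0.0322, edgeR adjusted p = 2.05e-15). CYS3, the cystathionine gamma-lyase, was at 78.7, 81.1 and 76.3 CPM in CX01 and at 206, 209 and 197 CPM in CX01F (2.59-fold, log2 1.37, SE 0.0315, edgeR adjusted p = 8.59e-15). CX01 replicate 3 was the lowest library of its strain for both genes.

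On the way from cysteine to homocysteine, STR2, the cystathionine gamma-synthase, was at 113, 114 and 116 CPM in CX01 and at 299, 293 and 299 CPM in CX01F (2.60-fold, log2 1.38, SE 0.0252, edgeR adjusted p = 7.24e-16). STR3, the cystathionine beta-lyase, which is found in peroxisomes, was at 44.7, 45.3 and 40.0 CPM in CX01 and at 90.0, 91.5 and 91.6 CPM in CX01F. It had the smallest rise of the 8 genes, 2.10-fold (log2 1.07, SE 0.0409, edgeR adjusted p = 3.13e-12).

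The balance of transcripts between these directions shifted by less than the levels did. Enzyme amounts and the flow through either route were not measured. The log2 ratio of CYS3 plus CYS4 to STR2 plus STR3, in counts per kb of coding length, was 0.936, 0.919 and 0.878 in CX01 and 1.15, 1.16 and 1.14 in CX01F. The ratio rose from 1.88 to 2.22, or 1.18-fold, with no overlap between the strains (exact permutation test, two-sided, p = 0.1, the smallest possible). The sums of the pairs rose 2.89-fold (CYS3 plus CYS4) and 2.46-fold (STR2 plus STR3) in CPM.

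**Figure D3:**
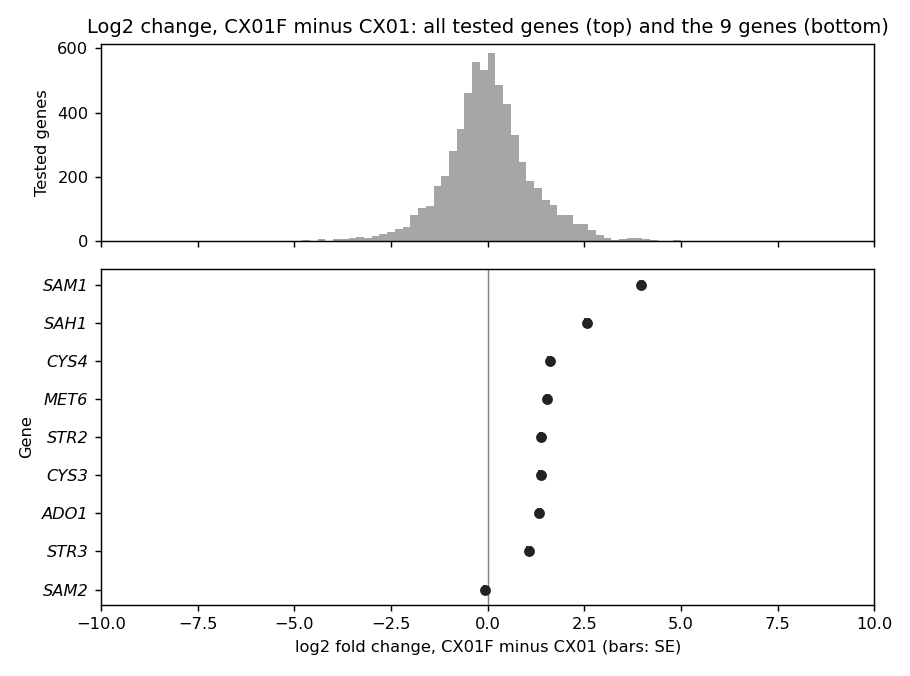
Histogram of the log2 fold changes (CX01F minus CX01) of the 6129 tested genes (top) and the log2 fold change of each of the 9 genes with its SE (bottom), on the same axis. SAM1 at 3.97 and SAH1 at 2.57 stand in the right tail, 6 genes lie between 1.07 and 1.60, and SAM2 at -0.07 lies at the centre.

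Levels can be compared between genes only per length, here as CPM per kb of coding length. In CX01 the order from the top was SAM2 (161 ± 0.515), ADO1 (114 ± 1.71), CYS4 (104 ± 4.39), SAH1 (97.3 ± 7.49), CYS3 (66.4 ± 2.05), STR2 (59.6 ± 0.702), MET6 (32.6 ± 1.72), STR3 (31.0 ± 2.08) and SAM1 (15.8 ± 1.10), each in CPM per kb (mean ± SD, n = 3). The libraries of CYS4 and SAH1 overlapped, as did those of MET6 and STR3, and no other neighbours in this order did. In CX01F the order was SAH1 (576 ± 10.1), CYS4 (316 ± 5.62), ADO1 (287 ± 6.08), SAM1 (248 ± 2.02), CYS3 (172 ± 5.06), STR2 (155 ± 1.7), SAM2 (153 ± 4.16), MET6 (95.0 ± 1.49) and STR3 (65.1 ± 0.628) in CPM per kb. Here STR2 and SAM2 were the only neighbours whose libraries overlapped. SAM2 moved from the top to the seventh place and SAM1 from the last to the fourth, while CYS3 and STR2 kept the fifth and the sixth.

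**Figure D4:**
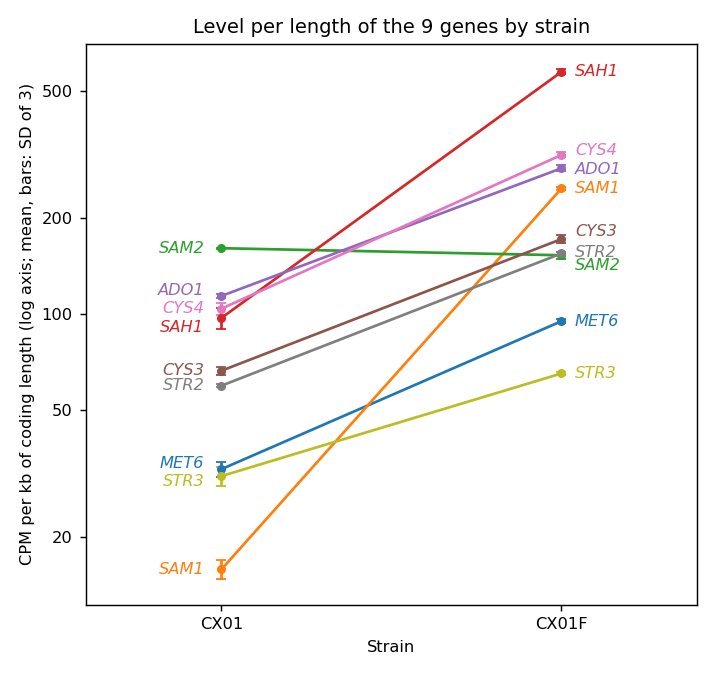
Mean CPM per kb of coding length (log axis, bars SD of 3 libraries) of the 9 genes in CX01 and CX01F, joined by a line per gene. The SAM1 line is the steepest and crosses that of SAM2, which is nearly flat (161 against 153 CPM per kb), and SAH1 leads in CX01F at 576 CPM per kb.

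For each of the 9 genes the gene with the most similar pattern was sought among 5483 others at 10 CPM or more, as the smallest root mean square (RMS) difference of log2 CPM centred on each gene's mean over the 6 libraries. With 2 strains this measure is mostly the size of the strain difference. CIT2 was nearest to SAM1 (RMS difference 0.0578, log2 change 3.93), RTR2 to SAM2 (0.0125, log2 change -0.06) and FCY2 to SAH1 (0.0108, log2 change 2.55). PRP43 was nearest to MET6 (0.0149), RPS15 to ADO1 (0.0183), UTP10 to CYS3 (0.00672), RPA49 to CYS4 (0.0192), CCW14 to STR2 (0.0115) and RSA4 to STR3 (0.0164).

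Around the 9 genes, 72 related genes in 8 lists were counted in the same fit, and 51 were called higher, 17 lower and 4 not, with a median log2 change of 0.59. Over all tested genes 45.5% were called higher and 45.9% lower with a median of 0.00, which follows largely from TMM scaling. The number of related genes called in either direction is close to the 91.4% of all genes. The lists are described by counts only, to be read against those shares, and no difference between a list and the other genes was tested. Genes of chromosomes XI and XV had median log2 changes of -0.82 and -0.87, against 0.02 to 0.25 on the other 14 chromosomes. None of the 9 genes is on either chromosome, but MET14, DFR1, PPM2 and TUM1 below are. The part of the chromosome in their values was not tested.

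Uptake and use of methionine, SAM and S-methylmethionine had 5 genes higher, 1 lower and 1 not called of 7 (median log2 change 1.67), with 2 lower by library size only and 2 lower without chromosomes XI and XV. SAM4, a methyltransferase that makes methionine from homocysteine and SAM, rose 13.8-fold, from 8.78 ± 0.0968 to 121 ± 2.32 CPM (log2 3.79, edgeR adjusted p = 1.54e-18). MUP3, a low-affinity methionine permease, fell by 0.45 on the log2 scale. Methionine salvage and polyamine synthesis, which consume SAM and return its methylthio group to methionine, rose in 9 of 9 genes (median 0.98). SPE3, spermidine synthase, rose most, from 46.7 ± 1.94 to 166 ± 2 CPM (log2 1.83, edgeR adjusted p = 5.04e-16).

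The methyltransferases that use SAM went both ways, with 14 higher, 5 lower and 3 not called of 22 (median 0.34). With library size only 9 were lower. TMT1, the trans-aconitate methyltransferase, rose most, from 46.5 ± 1.19 to 262 ± 1.85 CPM (log2 2.49, edgeR adjusted p = 6.75e-18). PPM2, a tRNA methyltransferase, fell most, from 42.7 ± 2.67 to 17.9 ± 1.10 CPM (log2 -1.26, edgeR adjusted p = 1.72e-11).

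Supply of homoserine and sulfide had 8 higher and 2 lower of 10 (median 0.64). By library size only, 6 were higher and 3 lower. HOM2, aspartate semialdehyde dehydrogenase, rose 12.4-fold, from 55.1 ± 1.49 to 684 ± 7.37 CPM (log2 3.63, edgeR adjusted p = 5.26e-19). MET14, which phosphorylates adenylyl sulfate in sulfate assimilation, fell by 0.75 on the log2 scale. Among genes that bring methyl groups from folate 6 were higher and 2 lower of 8 (median 0.52), and 5 were higher by library size only. SHM2, the cytosolic serine hydroxymethyltransferase, rose 5.06-fold (log2 2.34) to 461 ± 1.17 CPM, and DFR1, dihydrofolate reductase, fell by 1.26 on the log2 scale.

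Relatives of the transsulfuration enzymes had 3 higher and 1 lower of 4, and 2 higher by library size only. IRC7, a beta-lyase, was low in CX01 (1.19 ± 0.153 CPM) and rose 15.4-fold to 18.2 ± 0.752 CPM (log2 3.94), and YHR112C fell by 0.14 on the log2 scale. Users of cysteine and homocysteine had 4 higher and 1 lower of 5, and 2 lower by library size only. LAP3, an aminopeptidase of the cysteine protease type, rose 14.9-fold, from 107 ± 1.63 to 1600 ± 5.57 CPM (log2 3.90). TUM1, a sulfurtransferase, fell by 0.43 on the log2 scale.

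Of 7 sulfur regulators 2 were called higher and 5 lower (median -0.78), where 45.9% of all tested genes were called lower, and by library size only 1 was higher. MET28, a cofactor of Met4, fell most, from 46.4 ± 1.24 to 21.1 ± 0.573 CPM (log2 -1.14, edgeR adjusted p = 1.05e-12). GCN4, the general activator of amino acid synthesis, had the largest rise, from 1040 ± 53.5 to 1777 ± 40.9 CPM (log2 0.77, edgeR adjusted p = 3.39e-11). The genes of Met4 and of the factors that bring it to DNA were singled out after their values were seen. Their log2 changes were -0.67 for MET4, -0.78 for MET31, -0.84 for MET32 and 0.21 for CBF1. MET30, also among the 5 regulators called lower, had a log2 change of -0.82, from 369 ± 9.44 to 209 ± 4.59 CPM. The CBF1 change was 0.00 by library size only (edgeR adjusted p = 0.918). Transcript levels of these regulators say nothing of the activity of their proteins, which was not measured.

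**Figure D5:**
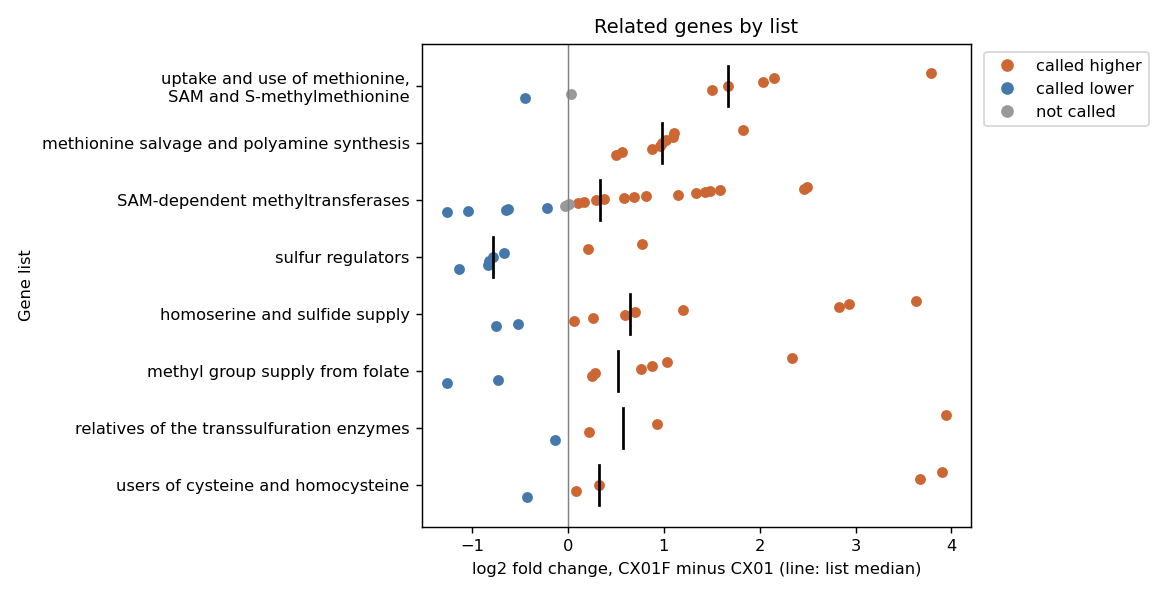
Log2 fold change (CX01F minus CX01) of each of the 72 related genes, by list, with each point 1 gene coloured by its edgeR call and the vertical line the list's median. Medians run from -0.78 for the sulfur regulators to 1.67 for uptake and use of methionine, SAM and S-methylmethionine.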

How the data were processed

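The authors deposited raw read counts, as whole numbers for each gene, of 6 RNA-seq libraries. The submitters' processing notes name TopHat2 2.0.12, featureCounts and Subread 1.4.6 among their tools, without roles. Build, annotation, strand setting and handling of multi-mapping reads are not given in the sources used here. A row without a gene name (0.00877% to 0.044% of counts) was left out. Of 6400 gene names 6083 matched RefSeq R64, used for names, coding lengths and reference sequence, and neighbouring rows followed R64 gene order in 6029 of 6056 cases.

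Counts were fitted in R 4.3.3 with edgeR 4.0.16 (filterByExpr at min.count 10 and min.total.count 15, TMM, two-sided quasi-likelihood test of a model with strain alone, leaving 4 residual degrees of freedom), after a check on simulated data. In that check few genes were changed, as many up as down, so it does not test the scaling where most genes are called. The filter removed 271 genes. CPM and SD are on TMM-scaled library sizes. SE is the log2 change divided by the square root of F.

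The 9 genes and the lists were chosen with earlier results of these data known. The related genes named are the largest called rise and fall of each list at 10 CPM or more in a strain with no overlap between strains. All 72 listed genes had a row, TRM4 under its R64 symbol NCL1. Alternatives were library size only, RLE factors, DESeq2 1.42.0, limma voom 3.58.1, no filter, a replicate block, leaving out each library, and leaving out chromosomes XI and XV. The 3 within-library ratios form 1 family of tests, each at the smallest possible p, so Benjamini-Hochberg adjustment leaves each at 0.1.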

Additional observations from a re-analysis of the deposited data

How the results depend on the processing

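In 114 of 117 refits of single genes among the 9, direction and side of the threshold stayed as reported. The other 3 were SAM2 with 1 library left out. Over all fits with 1 library left out, the log2 change of SAM2 ranged from -0.09 to -0.05. In those fits 8 to 9 of the 9 genes were called. The 8 rises were called under every alternative run. Library size only shifted all tested genes by a median log2 of -0.207 and gave 2221 genes higher and 3407 lower of 5628 called. Leaving out chromosomes XI and XV shifted them by -0.116. The ratio of CYS3 plus CYS4 to STR2 plus STR3 differed between strains by a log2 of 0.238, and by 0.263 with the mean of log2 values. A fit with a replicate block by number called 5619 genes, against 5603 without it, and all 9 genes kept their calls. Same-numbered deviations correlated at 0.0157 to 0.0702, each library best with its own number, which does not show that the numbers are pairs. Among list counts 7 moved by over 1.5 times, 4 by library size only (lower calls of methionine and SAM uptake and use, methyltransferases, and users of cysteine, and higher calls of regulators) and 3 without XI and XV (lower calls of uptake and use, folate, and users of cysteine), where the last 2 lists lose their lower genes because these lie on XV. Depth was at least 982 counts for each of the 9 genes in each library, and low counts touch mainly IRC7 among the genes named.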
